A study of Sus scrofa with 3 samples.

Results

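Lipid droplet coat genes were followed in visceral adipose tissue (VAT) of male Wuzhishan miniature pigs, a small Chinese breed. The genes were chosen by name: the perilipins PLIN1, PLIN2, PLIN3, PLIN4 and PLIN5, and CIDEC. All 6 are among the 22826 mRNA genes of the deposited values, PLIN5 under its older symbol LSDP5, and 5 of the 6 had a value above 0 in every library. RNA was taken from retroperitoneal fat after 12 weeks on an HFC diet, rich in fat and cholesterol, in pigs that were 6 to 7 months old when obtained. All 3 groups received the HFC diet. Intact male pigs (IM) had skin incisions only, castrated male pigs (CM) were gonadectomized, and castrated pigs with testosterone replacement (CMT) were gonadectomized and injected each week with 10 mg/kg testosterone propionate. Each group is 1 library of RNA mixed from several pigs (4 by the study's methods, between 4 and 6 by the labels), so a difference between groups has no replicate check and no test was run. A CMT pig differs from an IM pig in the surgery as well as in the source of its testosterone, and each comparison is therefore one between single pools.

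A fat cell stores triglyceride in a large lipid droplet, and the surface of the droplet is covered by proteins that decide how readily the fat is broken down. PLIN1 is the main perilipin of fat cells: at rest it holds ABHD5, the activator of the lipase PNPLA2, and after phosphorylation by protein kinase A it releases ABHD5 so that lipolysis can start. PLIN2 and PLIN3 coat small droplets in most cell types, PLIN4 coats small new droplets in fat cells and is also found in muscle, and PLIN5 belongs to tissues that burn fat, such as heart, skeletal muscle and liver, where it links droplets to mitochondria. CIDEC, known in mice as FSP27, gathers at contacts between droplets and lets the smaller one empty into the larger, and so favours the single large droplet of white fat.

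The unit is UQRPKM, in which reads per kilobase are set against the upper quartile of all genes in a library, so levels of different genes can be compared per length. Recovered reads on mRNA genes ranged from 13449107 to 14844063 per library. Intervals of levels and ratios are 95% Clopper-Pearson intervals from the recovered reads, and each covers counting error only, not differences between pigs or between library preparations. Of 10 adipocyte markers 8 were matched, and all 8 were above 0 in IM and CMT. ADIPOQ, the adiponectin gene, stood at 74928 UQRPKM in IM, at 69193 in CM and at 63873 in CMT. ADRB3 was at 0 in CM and rested on 5 reads in IM and 1 in CMT. Markers of other tissues differed by library. The summed level of 12 skeletal muscle markers was 82.7 UQRPKM in IM, against 68.8 in CM and 6152 in CMT, with MB and CKM at 0 throughout. The summed level of 10 liver markers was 2567 UQRPKM in IM, against 10410 in CM and 1753 in CMT. APOA1 alone held 2539, 2339 and 1714 of it, and the other 9 summed to 28.3, 8072 and 38.6 UQRPKM, with APOC3, SERPINA1, FGB and APOH at 0 in IM and SERPINA1 and APOH at 0 in CMT. The 8 macrophage markers summed to 982, 1123 and 914 UQRPKM, with CD163 at 0 throughout. The sum hides unlike genes. LOC100520753 (CD68) stood at 17.2, 42.9 and 22.2 UQRPKM, EMR1 at 45.6, 93.6 and 30.6, and MARCO at 16.8, 37.9 and 10.7, each highest in CM. The more abundant CD14 stood at 390.0, 395 and 339, CSF1R at 285, 246 and 221, and AIF1 at 198, 275 and 257. MSR1 stood at 28.8, 33.3 and 34.7 UQRPKM. The part of these tissues in the coat gene values was not tested.

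PLIN1, CIDEC and PLIN4 made up nearly the whole coat gene signal, and PLIN2 and PLIN5 were far lower. PLIN1 stood at 18396 UQRPKM in IM, at 18587 in CM and at 12504 in CMT. CIDEC stood at 14995 UQRPKM in IM, at 15020 in CM and at 12692 in CMT. PLIN4 stood at 8944 UQRPKM in IM, at 9349 in CM and at 4585 in CMT. For each of these genes the CMT library was the lowest, while IM and CM lay close together. PLIN1 ranked 53rd among the mRNA genes of IM by level, 51st in CM and 86th in CMT. CIDEC ranked 65th, 64th and 84th, and PLIN4 ranked 121st, 119th and 206th. The ranks place PLIN1, CIDEC and PLIN4 among the most abundant transcripts of the tissue in every library. By contrast, PLIN2 ranked 3193rd, 4013th and 4986th, and PLIN5 ranked 6522nd, 5605th and 7690th.

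The remaining measured perilipins had low values. In the RefSeq gene table PLIN2 overlaps LOC100737553, a transcribed pseudogene at 3694, 4133 and 3702 UQRPKM in IM, CM and CMT. How reads shared by overlapping genes were assigned is not given. The part of that assignment in the PLIN2 values here and below was not tested. PLIN2 stood at 243 UQRPKM in IM, at 173 in CM and at 121 in CMT, with 677, 461 and 332 reads behind these levels. It was highest in IM and lowest in CMT. Counting intervals ran from 225 to 262 in IM, from 158 to 190 in CM and from 109 to 135 in CMT. How many other genes have intervals as far apart was not counted. PLIN5 stood at 78.7 UQRPKM in IM, at 102 in CM and at 53.1 in CMT, with 165, 203 and 109 reads behind these levels. It was highest in CM and lowest in CMT. The counting intervals of its levels ran from 67.2 to 91.7 in IM, from 88.1 to 117 in CM and from 43.6 to 64.0 in CMT, so those of IM and CM overlapped. PLIN3 was listed at 0 in all 3 libraries. A value of 0 in these files need not mean an absent transcript, because the same holds for 5 of 61 ribosomal protein genes, which every cell uses.

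**Figure D1:**
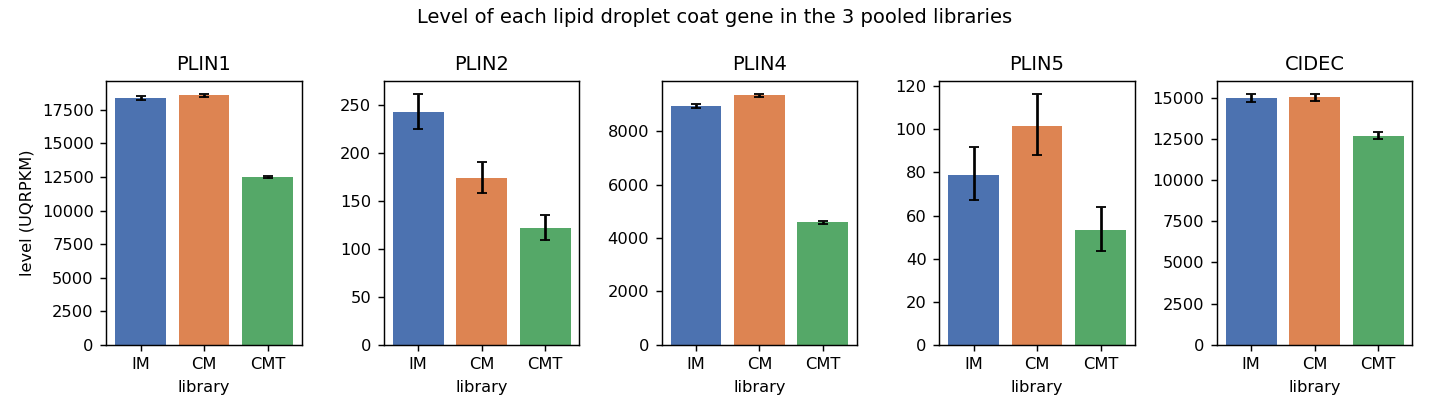
Level in UQRPKM (vertical axes, each from 0 and with its own scale) of the 5 measured coat genes in the IM, CM and CMT libraries. Bars are the values of single pooled libraries and error bars are 95% counting intervals. The CMT bar is the lowest for every gene, and that of PLIN1 reaches 12504 UQRPKM in CMT against 18587 in CM.

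Within IM and CM the order of the levels was PLIN1, CIDEC, PLIN4, PLIN2 and PLIN5. CIDEC stood at 81.5% of PLIN1 in IM (95% interval 80.2 to 82.9%) and at 80.8% in CM (79.4 to 82.2%). In CMT it stood at 101.5% of PLIN1 (99.6 to 103.4%), so the first and second places could not be told apart there by counting error. The remaining neighbours in the order differed beyond counting error in each library. PLIN2 was 3.08 times PLIN5 in IM, 1.71 times in CM and 2.29 times in CMT, with lower limits of 2.60, 1.44 and 1.84. PLIN2 reached 1.32% of the PLIN1 level in IM, 0.933% in CM and 0.971% in CMT.

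Summed over the 5 measured genes, the coat gene level was 42657 UQRPKM in IM, against 43231 in CM and 29955 in CMT. The CMT sum was 69.3% of that in CM and 70.2% of that in IM. The coat genes took 1.19% of the mRNA reads in IM, but 1.27% in CM and 0.8003% in CMT. The make-up of the sum was alike in IM and CM and differed in CMT. PLIN1 contributed 43.1% of it in IM, against 43.0% in CM and 41.7% in CMT. CIDEC contributed 35.2%, 34.7% and 42.4%, and PLIN4 contributed 21.0%, 21.6% and 15.3%. The lower sum in CMT thus came with a larger share of CIDEC and a smaller share of PLIN4. PLIN2 and PLIN5 together stayed under 1% of the sum in each library.

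**Figure D2:**
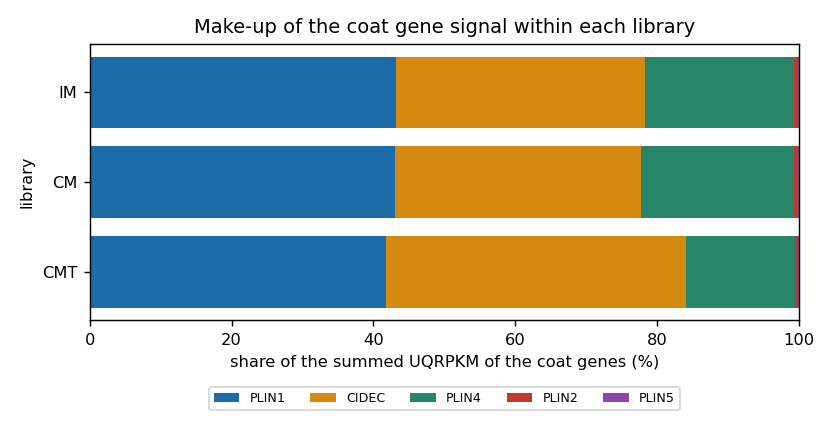
Share of each gene (horizontal axis, percent) in the summed UQRPKM of the 5 measured coat genes, with 1 bar per library. The CIDEC segment is 34.7% in CM and 42.4% in CMT, and the PLIN4 segment is 21.6% in CM and 15.3% in CMT.

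The comparison of CM with IM asks what castration does under the HFC diet. No coat gene passed the thresholds of the study without its test, a 1.5-fold difference where both libraries have 1 UQRPKM or more. Of 14123 mRNA genes 18.8% passed, 8.38% higher and 10.4% lower in CM. PLIN1 in CM stood at 101% of its IM level, a log2 ratio of 0.01 (95% interval 0.00 to 0.03). CIDEC had a log2 ratio of 0.00 (-0.03 to 0.03), and the interval for PLIN4 ran from 0.05 to 0.08 around a log2 ratio of 0.06. The median log2 ratio over all mRNA genes tested was -0.06. These abundant coat genes of white fat lay close together in the castrated and the intact pool, and under other scalings the log2 ratios reached 0.078 for PLIN1, 0.127 for PLIN4 and 0.066 for CIDEC. The less abundant perilipins lay further from 0 and in opposite directions. PLIN2 in CM stood at 71.5% of IM, a log2 ratio of -0.48 (-0.66 to -0.31), and PLIN5 stood at 129%, a log2 ratio of 0.37 (0.06 to 0.67). PLIN2 relative to PLIN5 was lower in CM than in IM, with a difference of -0.85 on the log2 scale (Woolf interval -1.20 to -0.51). This contrast lies within libraries and does not depend on how they are scaled. The CM library is also the one with the high liver markers, and their part in the PLIN5 value was not tested.

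The comparison of CMT with CM asks what testosterone replacement does after castration. All 5 measured coat genes were lower in CMT, and PLIN4 and PLIN5 passed the thresholds, 2 of 5 against a background of 9.97% of 14098 mRNA genes called lower, 9.53% higher and 19.5% in all. PLIN4 in CMT stood at 49.0% of CM, a log2 ratio of -1.03 (-1.05 to -1.01), which is a 2.04-fold lower level. PLIN5 stood at 52.2%, a log2 ratio of -0.94 (-1.29 to -0.59). PLIN1 was 1.49-fold lower, just under the limit, with a log2 ratio of -0.57 (-0.59 to -0.56). PLIN2 was 1.43-fold lower, with a log2 ratio of -0.51 (-0.72 to -0.31). CIDEC was 1.18-fold lower, with a log2 ratio of -0.24 (-0.28 to -0.21). The 5 genes thus ranged from a small to an about 2-fold lower level, with a median log2 ratio of -0.57 against -0.02 for all genes tested.

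In CMT versus IM, a comparison that shares the CMT library with the last one, PLIN2 and PLIN4 were called lower, 2 of 5 against a background of 11.9% of 14151 mRNA genes called lower, 8.81% higher and 20.7% in all. PLIN2 in CMT stood at 50.05% of IM, a log2 ratio of -0.999 (-1.19 to -0.81). PLIN4 stood at 51.3%, a log2 ratio of -0.96 (-0.98 to -0.95). PLIN5 and PLIN1 lay just under the limit at 1.48-fold and 1.47-fold lower levels, with log2 ratios of -0.57 (-0.93 to -0.21) and -0.56 (-0.57 to -0.54). CIDEC had a log2 ratio of -0.24 (-0.27 to -0.21). The CMT values of all 5 measured coat genes thus did not lie between those of CM and IM, but below both. The share of all mRNA genes with their lowest value in CMT was not computed. Among the matched adipocyte markers, ADIPOQ, LEP, CEBPA, AQP7 and GPD1 were also lowest in CMT, whereas PPARG, PCK1 and ADRB3 were not. For LEP the log2 ratio in CMT versus IM was -0.10, with an interval from -0.27 to 0.08 that includes 0. LEP stood at 167 UQRPKM in IM, at 502 in CM and at 156 in CMT.

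**Figure D3:**
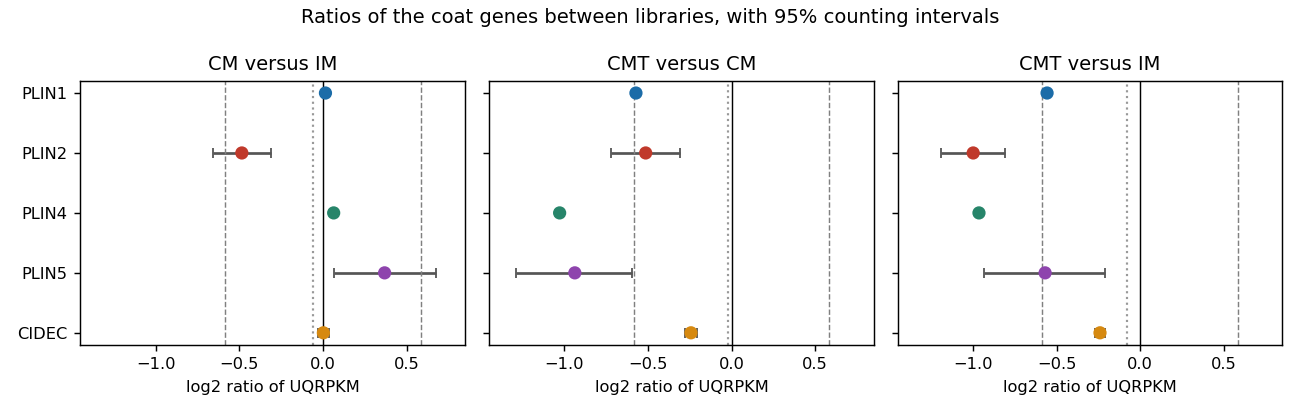
Log2 ratio of UQRPKM of the 5 measured coat genes in each comparison (horizontal axes), with 95% counting intervals as bars, which are narrower than the points for PLIN1 and PLIN4. Dashed lines mark a 1.5-fold change and the dotted line the median of all mRNA genes tested. In CMT versus CM all points lie left of 0, from -1.03 for PLIN4 to -0.24 for CIDEC.

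Abundant genes scatter less between libraries than genes with few reads, so PLIN1, PLIN4 and CIDEC were also set beside the 883 mRNA genes with a mean of at least 1000 UQRPKM over the libraries, a limit chosen after the values were seen. Of these genes 7.93% were called in CMT versus CM, 5.89% lower and 2.04% higher. The background for CMT versus IM was 7.25%, with 5.21% lower and 2.04% higher. For CM versus IM it was 5.66%, with 3.4% lower and 2.27% higher. In CMT versus CM, 14 of the 883 genes had a log2 ratio at or below that of PLIN4, 56 at or below that of PLIN1, and 185 at or below that of CIDEC, each count including the gene itself. In CMT versus IM the counts were 12, 56 and 267. In CM versus IM they were 575, 507 and 490, near the middle. PLIN4 therefore stood near the lower edge of the abundant genes in both comparisons with CMT, and CIDEC did not.

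**Figure D4:**
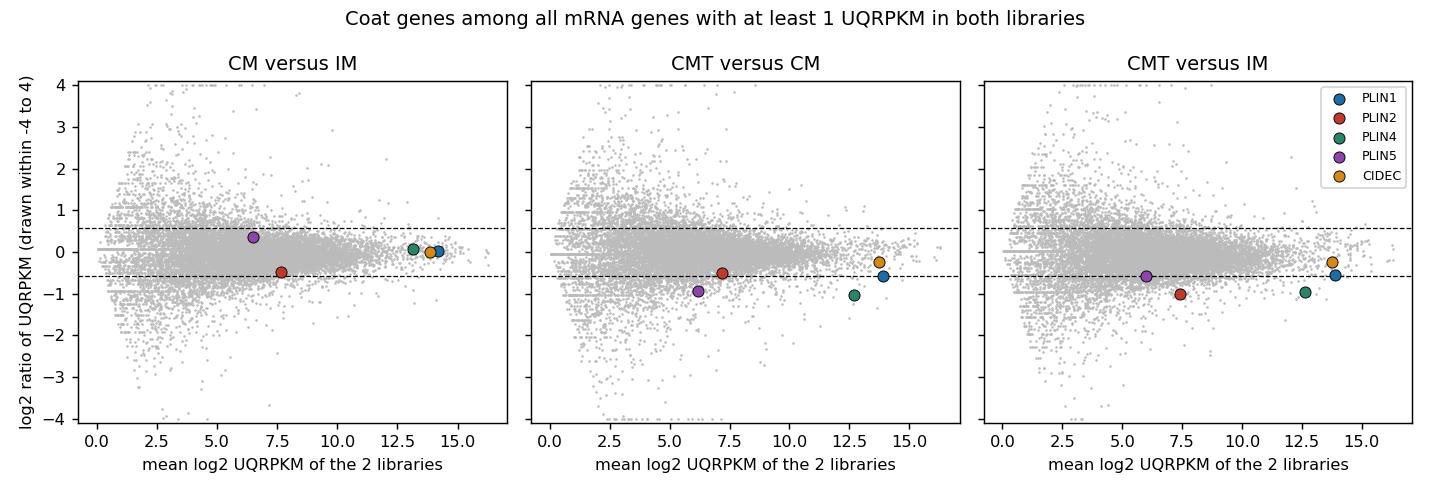
Log2 ratio of UQRPKM (vertical axis) against the mean log2 UQRPKM of the libraries compared (horizontal axis) for mRNA genes of 1 UQRPKM or more in both (grey), with the measured coat genes coloured. Ratios beyond 4 in size are drawn at the edge, and dashed lines mark a 1.5-fold change. In CMT versus CM, PLIN4 lies at -1.03, below most genes of its level.

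Ratios between coat genes within a library show unequal change without any scaling of libraries. CIDEC relative to PLIN1 was higher in CMT than in CM by 0.33 on the log2 scale (95% interval 0.29 to 0.37), whereas CM and IM differed by -0.01 (-0.05 to 0.02). PLIN4 stood at 48.6% of PLIN1 in IM, at 50.3% in CM and at 36.7% in CMT. This ratio was lower in CMT than in CM, with a difference of -0.46 on the log2 scale (-0.48 to -0.43). PLIN4 relative to CIDEC differed most of the 3 ratios among the abundant coat genes, with -0.79 between CMT and CM (-0.82 to -0.75). PLIN2 relative to PLIN1 was lower in CM than in IM, with a difference of -0.50 (-0.67 to -0.33), and its difference between CMT and CM was 0.06 (-0.15 to 0.26). The intervals for these differences are Woolf intervals, again of counting error only.

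In a bulk tissue, fewer fat cells and less RNA per fat cell cannot be told apart, so the coat genes were also set against ADIPOQ. PLIN1 stood at 24.6% of the ADIPOQ level in IM, at 26.9% in CM and at 19.6% in CMT. CIDEC stood at 20.01%, 21.7% and 19.9%, and PLIN4 at 11.9%, 13.5% and 7.18%. Divided by ADIPOQ, the log2 ratio in CMT versus CM was -0.46 for PLIN1, -0.91 for PLIN4, -0.82 for PLIN5, -0.40 for PLIN2 and -0.13 for CIDEC. For CIDEC in CMT versus IM it was -0.01. With the summed level of all 8 matched adipocyte markers as the divisor, the log2 ratio in CMT versus CM was -0.43 for PLIN1, -0.89 for PLIN4 and -0.10 for CIDEC. ADIPOQ makes up 78.4 to 79.6% of that sum, so the divisors are close to the same. The outcome depended on the marker, and single markers were tried as divisors after the data were seen. AQP7 and GPD1, an enzyme of glycerol 3-phosphate supply, had log2 ratios of -0.62 and -0.60 themselves in CMT versus CM. Divided by AQP7, the log2 ratio was 0.05 for PLIN1, -0.41 for PLIN4 and 0.38 for CIDEC, and divided by GPD1 it was 0.03, -0.43 and 0.36. Divided by LEP, the leptin gene, which had a log2 ratio of -1.69, all were above 0, with 1.11, 0.66 and 1.44. Divided by PCK1, which had a log2 ratio of 0.66, they were -1.23, -1.69 and -0.90. Divided by PPARG the log2 ratios were -0.54, -0.99 and -0.21, and divided by CEBPA they were -0.15, -0.61 and 0.18. PLIN1 in CMT was thus lower relative to ADIPOQ, PPARG, CEBPA and PCK1, but not to AQP7, GPD1 or LEP. PLIN4 was lower relative to each of these except LEP. AQP7 and GPD1 were themselves called lower in CMT versus CM. AQP7 is also among the 3 genes nearest to PLIN1 in these libraries, so its ratio to PLIN1 had to change little. PLIN4 and PLIN5 are also made in skeletal muscle, and the part of the muscle markers of the CMT library in their values was not tested.

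Other genes of the lipid droplet, and 7 transcription factors known to act on coat genes, were taken from a list of 46 names. Of these names 42 were matched. The lipases and their cofactors act at the droplet surface. ABHD5, the activator that PLIN1 holds, stood at 976 UQRPKM in IM, at 556 in CM and at 806 in CMT, and was called lower in CM versus IM with a log2 ratio of -0.81 (-0.92 to -0.70). PNPLA2, the triglyceride lipase of the droplet, had 10283, 7431 and 7827 UQRPKM, with a log2 ratio of -0.47 for CM versus IM and 0.07 for CMT versus CM. G0S2, the protein inhibitor of PNPLA2 (deposited as LOC100624161), had 544, 472 and 360 UQRPKM and was called lower in CMT versus IM with a log2 ratio of -0.60, a call lost under each other scaling (-0.55, -0.48 and -0.51 under total UQRPKM, total reads and median of ratios scaling). LIPE, the hormone-sensitive lipase that docks on phosphorylated PLIN1, had 12618, 11667 and 8438 UQRPKM, and its log2 ratio in CMT versus CM was -0.47 (-0.49 to -0.45). HILPDA, another inhibitor of PNPLA2 (deposited as HIG2), had 412, 461 and 288 UQRPKM and was called lower in CMT versus CM with a log2 ratio of -0.68 (-0.86 to -0.51). ABHD5 and PNPLA2 were thus lowest in CM, unlike the coat genes, while LIPE, G0S2 and HILPDA shared with them the lowest value in CMT. Of the 6 lipase genes tested, 1 (16.7%) was called lower and 0 higher in each comparison. Of all mRNA genes 10.4%, 9.97% and 11.9% were called lower, and 18.8%, 19.5% and 20.7% in either direction.

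Of the genes of droplet formation and triglyceride synthesis, 1 of 11 tested was called in CM versus IM (9.09%, against 18.8% of all mRNA genes), LPIN1, a phosphatidate phosphatase, with 1355, 828 and 1015 UQRPKM in IM, CM and CMT and a log2 ratio of -0.71 (-0.77 to -0.65). DGAT2, which makes triglyceride at the droplet, had 8056, 8891 and 7942 UQRPKM. BSCL2, the seipin of droplet budding sites, had 1484, 1316 and 1206 UQRPKM. In CMT versus CM, 1 of 12 was called (8.33%, against 19.5% of all genes), FITM1, on 5 and 13 reads with a counting interval from -0.24 to 3.18. FITM1, VPS13A, CIDEB, DGAT2, BSCL2 and CEBPA fell outside the rule for named genes and were chosen after their values were seen. FITM1 is a fat storage protein of muscle. The muscle markers were high in the same CMT library, and their part in the FITM1 value was not tested.

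Of the other CIDE genes, CIDEB was far lower than CIDEC. CIDEA, a CIDE protein of brown fat, was listed at 0 in each library, which, as for PLIN3, need not mean an absent transcript. CIDEB, the liver member, stood at 21.3 UQRPKM in IM, at 34.0 in CM and at 9.56 in CMT, with 25, 38 and 11 reads. It was called higher in CM versus IM, with an interval from -0.09 to 1.46 that includes 0. It was called lower in CMT versus CM, with a log2 ratio of -1.83 (-2.95 to -0.83). HSD17B13, a droplet protein of the liver, rested on 11 reads in IM, on 157 in CM and on 3 in CMT, and its log2 ratio of 3.90 in CM versus IM was the largest of the list. Liver markers were high in the same CM library, and their part in the CIDEB and HSD17B13 values was not tested. LPCAT1, a phosphatidylcholine enzyme found on droplets, had 223, 130.3 and 185 UQRPKM and was called lower in CM versus IM with a log2 ratio of -0.77 (-0.92 to -0.63). Of the other droplet-associated proteins 13 of 15 were not called in CM versus IM. The called share was thus 13.3%, against 18.8% of all mRNA genes. When CMT was compared with either other library, 13 of 14 were not called. The called share was 7.14% each time, against 19.5% of all mRNA genes relative to CM and 20.7% relative to IM. The exception in both comparisons with CMT was VPS13A. For CMT versus CM it was lower on 25 and 13 reads, with an interval from -2.07 to 0.04 that includes 0. For CMT versus IM its interval ran from -1.78 to 0.40. HSD17B13 was tested in neither, because its 0.944 UQRPKM in CMT lies under the limit of 1. It stood at 3.39 UQRPKM in IM and at 50.8 in CM.

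PPARG, the nuclear receptor that activates PLIN1 and CIDEC in fat cells, did not share their lower value in CMT. It stood at 1454 UQRPKM in IM, at 1745 in CM and at 1704 in CMT, with a log2 ratio of -0.03 in CMT versus CM (-0.12 to 0.05). CEBPA, its partner in fat cells, had 3196, 3723 and 2778 UQRPKM and a log2 ratio of -0.42 in CMT versus CM. PPARA, which drives PLIN2 and PLIN5 in liver and other tissues that burn fat, had 37.1, 79.4 and 58.7 UQRPKM and was called higher in CM versus IM, with a log2 ratio of 1.10 (0.70 to 1.51), and in CMT versus IM, with 0.66 (0.24 to 1.09). PPARD, the third receptor of this family, had 351, 317 and 223 UQRPKM and was called lower in CMT versus IM with a log2 ratio of -0.65, a call lost under total reads scaling (-0.54) and median of ratios scaling (-0.56). CEBPB, an early factor of fat cell formation, had 108, 69.7 and 59.9 UQRPKM and was called lower than in IM both in CM, with a log2 ratio of -0.64, and in CMT, with -0.86. The call in CM was lost under total reads scaling (-0.578) and median of ratios scaling (-0.573). Over all groups of the list, transcription factors included, 3 of 38 tested genes (7.89%) were called higher and 4 (10.5%) lower in CM versus IM. These shares were near the 8.38% and 10.4% of all mRNA genes. The counts were 1 and 3 of 38 (2.63% and 7.89%) for CMT versus CM, where 9.53% and 9.97% of all genes were called. They were 1 and 5 of 37 (2.7% and 13.5%) for CMT versus IM, where 8.81% and 11.9% of all genes were called, and turned to 3 higher and 2 lower under total reads or median of ratios scaling. In the main counts, the 5 transcription factors tested gave 1 higher and 1 lower call in CM versus IM. They gave 0 in CMT versus CM, and 1 higher and 2 lower in CMT versus IM. The median log2 ratio of the list in CMT versus CM was -0.12, closer to 0 than the -0.57 of the coat genes.

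**Figure D5:**
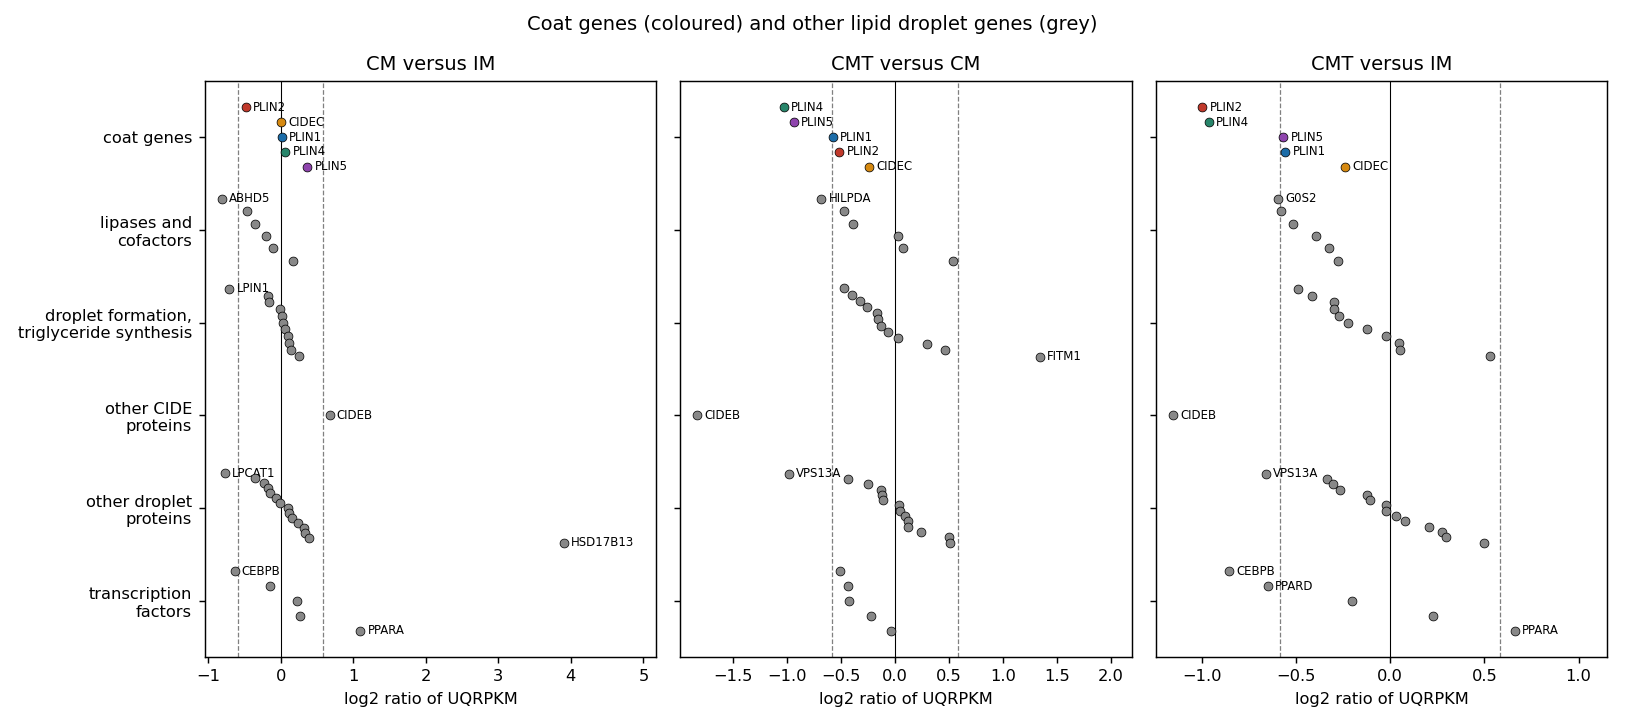
Log2 ratio of UQRPKM (horizontal axes) of the coat genes and of the listed genes, by group and comparison. The listed genes are other lipid droplet genes and transcription factors that reach 1 UQRPKM in both libraries. Dashed lines mark a 1.5-fold change, and the coat genes and all called genes carry their names. In CMT versus CM the coat genes lie between -1.03 and -0.24, while genes of droplet formation lie on both sides of 0.

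Genes with a pattern like that of each coat gene were sought over the 3 libraries among mRNA genes with at least 500 reads in each. Likeness was the Euclidean distance between the pairs of log2 ratios against IM, and with 3 libraries it is a description only. The nearest to PLIN1 were PHF11, CS and AQP7 at distances from 0.0331 to 0.0417. CS is citrate synthase of the mitochondrial citric acid cycle, and AQP7 is the channel through which fat cells release glycerol. AQP7 stood at 2193 UQRPKM in IM, at 2279 in CM and at 1481 in CMT. Within a distance of 0.1 lay 12 of 3971 genes for PLIN1, 2 for PLIN4 and 243 for CIDEC. Such a count largely restates how far the ratios of a coat gene lie from those of most genes. The genes nearest to PLIN4 were LOC100737434, LOC100737768 and LRRN4CL, the last at a distance of 0.119. For PLIN2 they were LOC100621371, KLF4 and LGALS9, with 4 of 3972 genes within 0.1. KLF4 is a transcription factor and LGALS9 a galectin, and they had 416 and 992 UQRPKM in IM, 306 and 707 in CM, and 203 and 517 in CMT. For PLIN5 they were CA5B, PAQR6 and GALNTL1, with 5 genes within 0.1. The counting intervals of the PLIN2 and PLIN5 ratios against IM are wider than 0.1, so their nearest genes and counts are uncertain. CA5B, a mitochondrial carbonic anhydrase, had 718, 956 and 472 UQRPKM. The genes nearest to CIDEC were CD99L2, INPPL1 and UROD.

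Position can affect these counts, because the handling of reads shared by overlapping genes is not given in the sources used here. In the RefSeq gene table, which is of a later pig assembly than the files, PLIN4 and PLIN5 are neighbours with no protein-coding gene between them. PLIN1 and CIDEC each overlap a long non-coding RNA gene, LOC106510160 and LOC106505669, which were not analysed here. PLIN2 overlaps LOC100737553, annotated as a transcribed pseudogene, which stood at 3694 UQRPKM in IM, at 4133 in CM and at 3702 in CMT, far above PLIN2. PLIN4 overlaps HDGFL2 (deposited as LOC100526035), which had 281, 254 and 325 UQRPKM, far below PLIN4. CMT was not the lowest library for either LOC100737553 or HDGFL2.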

How the data were processed

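RNA-Seq libraries of IM, CM and CMT pigs (1 pooled library each, single-end, Ion Proton) were analysed from their processed values. After filtering, the authors aligned the reads with MapSplice to the pig genome Sscrofa 10.2 and deposited UQRPKM values, RPKM scaled by the upper quartile of a library. The counting tool and annotation are not given in the sources used here. Whole reads were recovered for all 20838 genes above 0 from the steps of these values, with upper quartiles of 149, 142 and 146, the shortest fitting length up to 120000 bases and a relative tolerance of 1e-08, so genes whose reads share a common factor are underestimated. Totals over all genes were 16611931, 15561124 and 15106608 reads. Recovery and calls were checked on simulated data.

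Log2 ratios of UQRPKM carry no pseudocount. A gene was called at a fold change of 1.5 with at least 1 UQRPKM in both libraries. DEGSeq, the authors' test, was not used, since it compares single libraries. The members and lists were chosen with earlier results of these data known. Named were all members and PNPLA2, ABHD5, G0S2, LIPE and PPARG. Also named were up to 4 called genes of each group of the droplet list with at least 50 reads in 1 of the libraries compared, the 3 nearest genes of each member with at least 100 reads per library, and the 3 highest markers per list. Beside ADIPOQ, the highest adipocyte markers were GPD1 (7876, 7479 and 4925 UQRPKM in IM, CM and CMT) and PCK1 (5402, 3377 and 5326). Those of muscle were ACTA1 (49.8, 39.8 and 3589), MYLPF and TNNC1, of liver ALB (2.61, 2910 and 4.00), APOA1 and APOC3, and of macrophages CD14 (390.0, 395 and 339), CSF1R and AIF1. The adipocyte markers summed to 95218, 88298 and 80243 UQRPKM. Symbols were matched as deposited or through synonyms in the RefSeq table of Sscrofa 11.1, which otherwise served only for neighbouring genes. FABP4, LPL, METTL7A, METTL7B, PTRF and RXRA were not analysed here. Python 3.11.15, numpy 2.4.6, pandas 2.3.3, scipy 1.17.1 and matplotlib 3.10.9 were used. Alternatives were other scalings, a pseudocount, other limits and filters, and an interval on 1 side of 0. No sequences are printed.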

Additional observations from a re-analysis of the deposited data

How the results depend on the processing

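No library could be left out, because each group is 1 library. No paired analysis was possible because no group has a second library. Of 60 log2 ratios of coat genes under other scalings or a pseudocount of 1, 36 stayed within the counting interval, 24 moved beyond it, and each kept its sign and its side of the 1.5-fold limit. The scalings shifted all genes together, at most by 0.11 on the log2 scale (total reads, CMT versus IM). Under total UQRPKM, total reads and median of ratios scaling, PLIN1 had log2 ratios of 0.035, 0.074 and 0.078 in CM versus IM. It had -0.55, -0.52 and -0.55 for CMT versus CM, and -0.51, -0.44 and -0.47 for CMT versus IM. PLIN4 had, in the same order, 0.084, 0.12 and 0.13, then -1.004, -0.97 and -1.004, then -0.92, -0.85 and -0.88. CIDEC moved to 0.061 and 0.066 in CM versus IM under total reads and median of ratios scaling, to -0.19 in CMT versus CM under total reads scaling, and to -0.20, -0.13 and -0.15 in CMT versus IM.

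With a 2-fold limit 1 coat gene, PLIN4, was called lower in CMT versus CM, but 0 for CMT versus IM. Of the list of other lipid droplet genes and transcription factors a 2-fold limit left 0 lower for CM versus IM. It left 1 lower for CMT versus CM, and 0 higher and 1 lower for CMT versus IM. Total reads scaling gave 2 higher in CMT versus CM. Total reads and median of ratios scaling each gave 3 higher and 2 lower in CMT versus IM. The lower calls lost were G0S2, VPS13A and PPARD, and under total UQRPKM scaling G0S2 was lost. An interval on 1 side of 0 left 0 higher in CMT versus CM. Over all mRNA genes a 2-fold limit left 545 higher and 594 lower genes for CM versus IM, 596 and 629 for CMT versus CM, then 560 and 602 for CMT versus IM. The interval rule left 717 and 939 for CM versus IM, 837 and 911 for CMT versus CM, then 745 higher for CMT versus IM. A mean of 1000 UQRPKM, chosen after seeing the data, left 20 and 30, 18 and 52, and 18 and 46.

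Counted in reads and not per length, the shares in IM, CM and CMT were 46.3%, 45.6% and 50.6% for PLIN1, 0.383%, 0.267% and 0.308% for PLIN2, 44.0%, 44.9% and 36.3% for PLIN4, 0.0933%, 0.118% and 0.101% for PLIN5, and 9.31%, 9.11% and 12.7% for CIDEC. The smaller PLIN4 share and larger CIDEC share in CMT were present on both scales. Depth limits PLIN5 most, with 109 reads in CMT, and nothing measured here gives the spread between pigs.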
